A study of Mus musculus with 7 samples.

Results

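Mini-oocytes are oocyte-like cells made from mouse embryonic stem cells (mESCs) in a two-dimensional culture by forced expression of oocyte transcription factors. The transcripts described here are those of 9 maternal regulators of zygotic genome activation, namely *Smarca4*, *Ctcf*, *Trim24*, *Yap1*, *Tead4*, *Nfya*, *Nelfa*, *Dppa2* and *Dppa4*. They were chosen by gene symbol, and all 9 were among the 55364 genes of the expression table.

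Zygotic genome activation is the start of transcription from the embryo's own genome, which in the mouse begins in the zygote and becomes broad at the 2-cell stage. It relies on proteins and mRNAs that the oocyte stored while it grew, among them chromatin remodellers, DNA-binding factors and regulators of RNA polymerase II. Because a growing oocyte makes these transcripts before they are used, their RNA level describes what a cell has stocked and not whether activation can take place.

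RNA was sequenced from 7 libraries in 3 groups. The first group was mini-oocytes at day 7 of induction with 4 factors (4F, *Nobox*, *Figla*, *Tbpl2* and *Lhx8*; n = 2 libraries of 1000 pooled cells). The second was 4F-mini-oocytes at day 21 (n = 3 libraries of 10 pooled cells). The third was mini-oocytes at day 21 of induction with 8 factors (8F, the same 4 plus *Stat3*, *Dynll1*, *Sub1* and *Sohlh1*; n = 2 libraries of 10 pooled cells). All cells derived from female mESCs of the BVSC H18 line on a hybrid 129 and C57BL6 background, and the 8F line also carries an Npm2-mCherry reporter. In all 3 groups the factors were fused to a destabilization domain, which Shield-1 stabilises, and Shield-1 was left out of fresh medium from day 12, so the day 7 cells were collected under Shield-1 and both day 21 groups after its withdrawal. The cultures also received stem cell factor (SCF) and contained no ovarian somatic cells. Day, number of pooled cells and the withdrawal of Shield-1 changed together, so their contributions cannot be told apart. The 4F and 8F cells were of different lines, so line and number of factors cannot be told apart either. In pooled cells, fewer cells of a type and less RNA per cell cannot be separated.

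The libraries held between 9051760 and 17190300 estimated reads on genes. The 10 most abundant genes took 28.3% to 31.8% of all TPM at day 7 and 9.95% to 13.5% in the day 21 libraries. TPM, the unit of all levels here, divides reads by exon length and scales each library to the same total, so a shift in a few abundant genes moves the TPM of all others. All 14 oocyte markers were present in every library, with sums of 17660 to 21050 TPM at day 7, 51720 to 56160 TPM in 4F at day 21 and 39780 to 41050 TPM in 8F. The 14 pluripotency markers summed to 253 to 402, 894 to 1087 and 1073 to 1237 TPM in the same order. *Dppa5a* (164 to 1076 TPM over the libraries) made up most of these sums, and *Nanog* did not exceed 0.940 TPM. *Pou5f1* was at 24.4 and 30.1 TPM at day 7 and 154 to 267 TPM in 4F at day 21. *Zfp42* went the other way, from 20.6 and 21.9 TPM to 6.35 to 8.75 TPM. Of the 9 pluripotency markers that met the filter given below, 4 were higher and 1 lower in 4F at day 21 than at day 7. Among all genes tested, 25.3% were higher and 15.3% lower. The 10 granulosa cell markers summed to at most 15.8 TPM in any library, with 3 to 8 of them at 0. The 16 markers of other differentiation summed to 1115 and 1588 TPM at day 7, against 75.0 to 185 TPM in the 5 day 21 libraries. The part of this difference in the results was not tested.

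As day of induction increased from 7 to 21 in 4F cells, 8 of the 9 regulators passed the test. *Smarca4*, *Trim24*, *Yap1*, *Nfya* and *Nelfa* were higher at day 21, and *Tead4*, *Dppa2* and *Dppa4* were lower. *Ctcf* did not pass. *Tead4* met the filter for low values (1 TPM in 2 libraries) only through day 7, so its call is a description, and 7 of the other 8 passed. The shares of all 21780 genes tested that passed were 40.6% in either direction, 25.3% higher and 15.3% lower, so calls were frequent throughout the transcriptome. Counts over the gene lists cover only genes that met the same filter. The shares of all genes were not matched to the level of the listed genes, so these counts are descriptions of each list. The median log2 fold change of all genes tested was 0.17, and that of the 9 regulators was 0.54. Relative to the median of all genes, the 5 that were higher lay between 0.33 (*Yap1*) and 1.09 (*Nfya*), and the 3 that were lower between -1.94 (*Dppa2*) and -3.80 (*Dppa4*). These distances depend on the filter, since raising it from 1 to 5 TPM moved the median of all genes from 0.17 to 0.36. Against that higher median the 5 stand out less, *Yap1* (log2 fold change 0.50) least of all.

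Other scalings moved this balance. Of all genes that passed, 62.4% were higher at day 21 as deposited, 48.6% with library factors from the median of ratios, 52.0% after quantile normalization and 37.7% under voom, a count model, on reads estimated from TPM, with medians over all genes of -0.06, 0.04 and -0.32 in turn. *Trim24* and *Dppa2* passed under each of 18 other settings, and *Dppa4* under all but those that left out either day 7 library. Quantile normalization gave 4 calls (*Trim24*, *Tead4*, *Dppa2* and *Dppa4*) and voom gave 5, with *Nfya* added. Both counts include *Tead4*, whose call is a description under every setting.

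**Figure D1:**
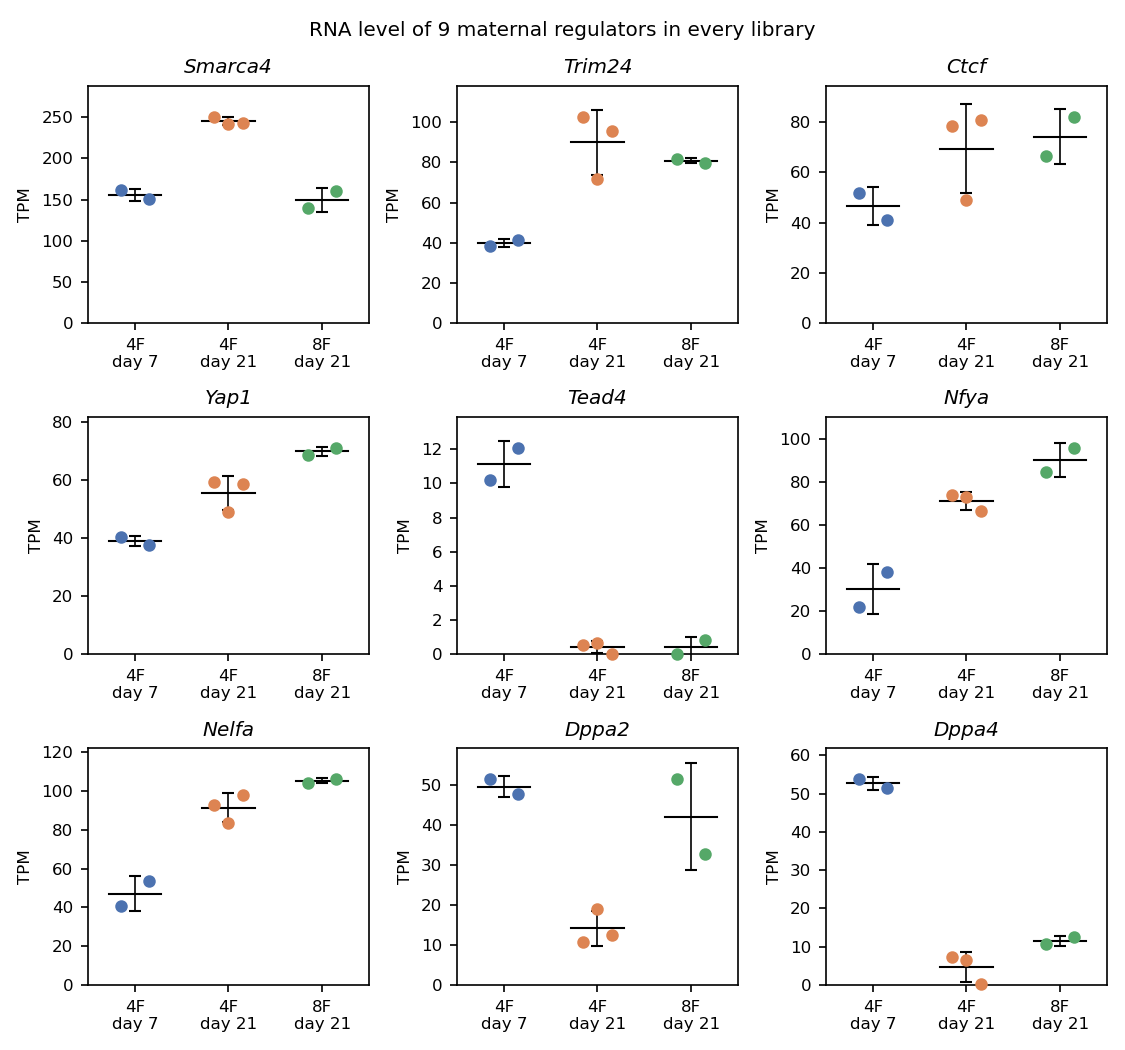
TPM (y axis, linear from 0, scale differing between panels) of each of the 9 regulators in 4F at day 7 (n = 2), 4F at day 21 (n = 3) and 8F at day 21 (n = 2). Points are libraries, long lines are means and bars are 1 SD; *Tead4* lies between 0 and 0.836 TPM in the 5 day 21 libraries, against 10.2 and 12.1 TPM at day 7.

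A percentile among the 21780 genes tested, computed within each library, is the same under any factor applied to that library. By this measure *Trim24* lay at 82.8 and 84.3 at day 7 and between 86.8 and 90.9 in 4F at day 21, *Nfya* at 70.5 and 83.0 and then between 85.5 and 87.0, and *Nelfa* at 83.8 and 88.4 and then between 88.8 and 90.5. The share of all genes whose ranges kept apart was not computed, so these percentiles are descriptions. The ranges of *Nelfa* overlapped when only genes at or above 1 TPM in a library were ranked. *Smarca4* (97.0 and 97.3, then 97.1 to 97.3) and *Yap1* (82.6 and 83.6, then 81.3 to 84.1) kept overlapping ranks while their TPM went up. *Dppa2* lay at 86.6 and 87.6 and then between 54.7 and 64.9.

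When 8F was compared with 4F at day 21, 2 of the 9 regulators passed the test. *Dppa2* was higher in 8F and *Smarca4* was lower. Among all genes tested, 8.37% passed, 3.95% higher and 4.41% lower, and the median log2 fold change was 0.06 over all genes and 0.20 over the 9 regulators. The 7 others did not pass, and 1 of them, *Yap1*, had an unadjusted p under 0.05. Of all genes that passed, 47.3% were higher in 8F, against 62.2% with voom. Among the listed partner genes, 18 passed in this comparison, and between 1 and 6 did when any 1 of the 5 day 21 libraries was left out. When 8F at day 21 was compared with 4F at day 7, *Trim24*, *Yap1*, *Nfya* and *Nelfa* were higher and *Tead4* was lower, so 5 of 9 passed. The call of *Tead4*, which met the filter only through day 7, is a description, which leaves the 4 that were higher. The background for this comparison was 37.2% of all genes, 24.2% higher and 13% lower, with medians of 0.24 over all genes and 0.67 over the 9 regulators. Raising the filter to 5 TPM moved the first of these medians to 0.39. Of all genes that passed, 65.1% were higher in 8F, and 51.5%, 51.1% and 47.4% were under the same 3 other scalings. The 3 comparisons share libraries, each pair of them having 1 group in common, and are therefore not independent.

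**Figure D2:**
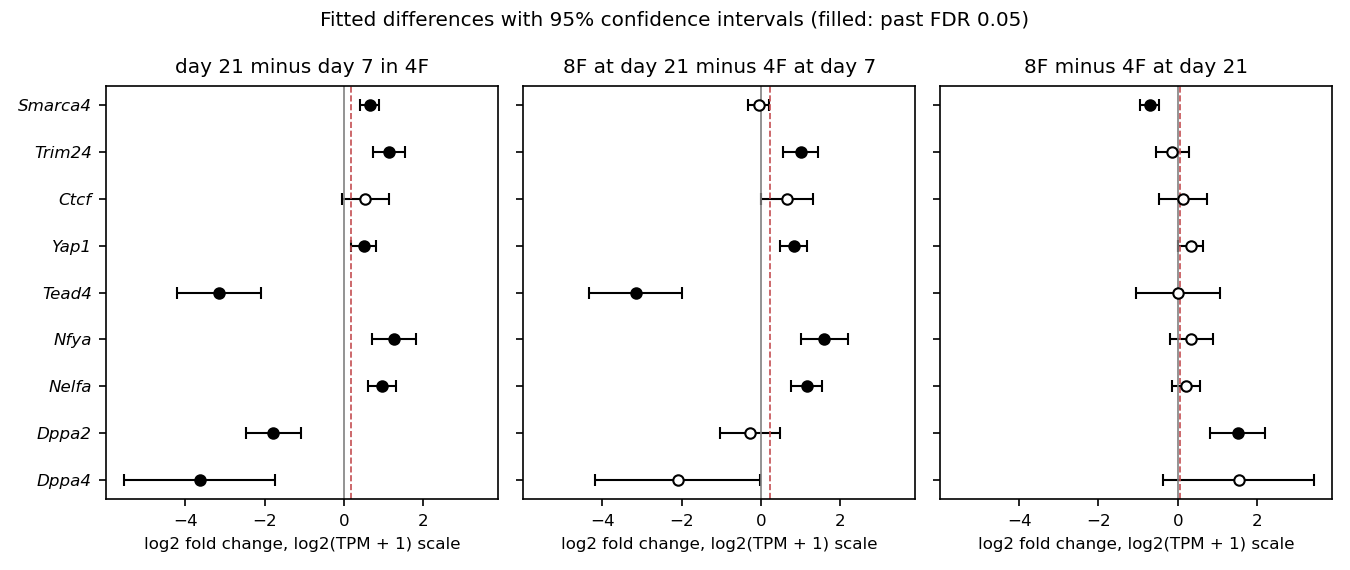
Fitted log2 fold change on the log2(TPM + 1) scale (x axis) of each regulator in the 3 comparisons, with 95% confidence intervals from limma. Filled points passed FDR 0.05, the grey line is 0 and the dashed line is the median of all genes tested; *Tead4*, *Dppa2* and *Dppa4* lie left of 0 in the day 21 against day 7 panel.

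The order of the 9 transcripts by mean TPM kept the same ends in all groups, with *Smarca4* highest and *Tead4* lowest. At day 7, *Dppa4* and *Dppa2* came next after *Smarca4*, and from *Dppa2* down to *Nfya* (means of 49.5 to 30.2 TPM) every neighbouring pair overlapped between libraries. In 4F at day 21 the second place was taken by *Nelfa*, and the neighbours from *Nelfa* through *Trim24*, *Nfya*, *Ctcf* to *Yap1* overlapped (means of 91.5 to 55.6 TPM). *Dppa2* and *Dppa4* had dropped to the seventh and eighth places, and *Dppa4* overlapped *Tead4*. In 8F the order was the same except that *Nfya* preceded *Trim24*, and the pairs that overlapped were *Trim24* with *Ctcf* and *Ctcf* with *Yap1*.

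*Smarca4* (chromosome 9, 21616169 to 21704230, plus strand, mm10, as are all gene positions here) encodes BRG1, an ATPase of the BAF and PBAF chromatin remodelling complexes. Its levels were 161 and 150 TPM in 4F at day 7, 250, 241 and 243 TPM in 4F at day 21, and 139 and 160 TPM in 8F at day 21. The 4F libraries at day 21 stood above all others, and those of the other groups overlapped. The TPM of 4F at day 21 (244.9 ± 4.83, SD, n = 3) was 1.57 times that at day 7 (log2 fold change 0.65, SE 0.10, adjusted p = 0.00284, limma). This increase was 0.02 after quantile normalization and 0.13 with voom, and passed under neither (adjusted p = 0.917 and 0.231, limma). The level in 8F was lower than in 4F at day 21 (log2 fold change -0.71, SE 0.10, adjusted p = 0.0128, limma), and was lower under all 18 other settings, in 15 of which it passed. It did not pass without 8F replicate 1 (adjusted p = 0.0897, limma), without the trend of the spread (0.0836) or with a replicate block (0.0922). The difference between 8F and 4F at day 7 was -0.06 (95% confidence interval -0.32 to 0.20, adjusted p = 0.705, limma), but passed as a decrease under the 3 other scalings (-0.38, -0.61 and -0.44).

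The alternative ATPase of these complexes is encoded by *Smarca2*. It was at 29.1 and 30.5 TPM at day 7, at 157, 149 and 124 TPM in 4F at day 21 and at 79.5 and 86.4 TPM in 8F. Day 21 libraries stood above day 7 ones, and 4F above 8F. *Smarca2* rose by 2.22 from day 7 to day 21 in 4F (adjusted p = 9.56e-05, limma) and was lower in 8F by -0.77 on the log2 scale (adjusted p = 0.0222, limma). *Smarca4* thus made up 83.9% ± 1.11 of the summed TPM of both ATPase genes at day 7 (SD, n = 2), 63.2% ± 2.68 in 4F at day 21 (n = 3) and 64.3% ± 0.905 in 8F (n = 2). Such a share does not depend on the scaling of the library.

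Of the 26 other genes of the BAF and PBAF complexes that were tested, 14 were higher and 1 lower in 4F at day 21 than at day 7. The counts were 10 higher and 5 lower after quantile normalization and 11 higher and 6 lower with voom. As deposited, 25.3% of all genes tested were higher and 15.3% lower. No such shares are set beside the counts under the other scalings. *Smarcd2*, an accessory subunit, rose from 24.9 and 23.5 TPM to 104, 109 and 104 TPM (log2 fold change 2.08, adjusted p = 6.06e-05, limma), while its paralog *Smarcd1* fell by 0.98 on the log2 scale (adjusted p = 0.0464, limma). Between 8F and 4F at day 21, 4 of the 26 were lower and 0 higher with limma, against 7 lower and 2 higher at an unadjusted p under 0.05 and 5 lower and 1 higher with voom. One of these was *Smarcc1*, a core scaffold subunit, at 58.1 and 54.0 TPM in 8F against 122, 113 and 99.0 TPM in 4F (log2 fold change -0.97, adjusted p = 0.00963, limma). Against day 7, *Smarcd2* (2.40) and *Ss18l1* (1.46) were higher in 8F and *Smarcd1* (-1.63) and *Pbrm1* (-0.94) were lower.

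*Ctcf* (chromosome 8, 105636568 to 105682922, plus strand) encodes the zinc finger protein that sets chromatin loop boundaries together with cohesin. It was at 52.0 and 41.2 TPM at day 7, 78.3, 49.0 and 81.1 TPM in 4F at day 21, and 66.5 and 82.1 TPM in 8F. Replicate 2 of 4F at day 21 was near the day 7 libraries and the other 2 stood above them, so the groups overlapped. The log2 fold change from day 7 to day 21 in 4F was 0.54 (95% confidence interval -0.06 to 1.14, adjusted p = 0.135, limma), and it was 0.77 with an adjusted p of 0.0209 without that replicate. For 8F against 4F at day 7 it was 0.67 (adjusted p = 0.103, limma), and for 8F against 4F at day 21 it was 0.12 (adjusted p = 0.846, limma). Exons of *Gm5914* and *Agrp* on the opposite strand share 7.61% and 2.35% of the *Ctcf* exon bases, and neither gene exceeded 5.50 TPM.

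The germ-cell paralog *Ctcfl* reached 2.10 TPM in 1 day 7 library and at most 0.298 TPM in the other 6. *Ctcf* made up 97.7% ± 2.24 of their summed TPM at day 7 (SD, n = 2) and at least 99.9% in every day 21 library. Among 18 cohesin genes and regulators tested, 9 were higher and 2 lower in 4F at day 21 than at day 7 (5 higher under each of the other scalings). The shares of all genes as deposited were 25.3% and 15.3%. *Cdca5*, which encodes the cohesin protector sororin, rose by 2.01 (adjusted p = 0.000206, limma) and the cohesin acetyltransferase *Esco1* by 1.74 (adjusted p = 0.000983, limma). The meiotic kleisin *Rec8*, which met the filter only through day 7, was at 9.03 and 6.92 TPM there and at 0 in all 3 libraries of 4F at day 21, and meiotic *Stag3* fell by 2.17 on the log2 scale (adjusted p = 0.0118, limma). In 8F, 4 of the 18 were lower than in 4F at day 21, including meiotic *Smc1b* (127 and 131.5 TPM against 345, 319 and 324 TPM, adjusted p = 0.00297, limma) and *Smc1a* (log2 fold change -0.95, adjusted p = 0.0141, limma).

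*Trim24* (chromosome 6, 37870811 to 37966296, plus strand) encodes TIF1-alpha, a chromatin reader and nuclear receptor cofactor. Its levels were 38.5 and 41.2 TPM at day 7, 103, 71.7 and 95.8 TPM in 4F at day 21 and 81.8 and 80.0 TPM in 8F. All 5 day 21 libraries lay above both day 7 libraries. Mean TPM in 4F was 2.26 times as high at day 21 as at day 7 (log2 fold change 1.14, SE 0.17, adjusted p = 0.00245, limma), and the log2 fold change ran from 0.60 to 1.30 over the 18 other settings. In 8F against 4F at day 7 it was 1.00 (adjusted p = 0.00695, limma) and did not pass after quantile normalization (0.51, adjusted p = 0.0638) or without 8F replicate 1 or 2 (adjusted p = 0.0585 and 0.0552). 8F and 4F at day 21 differed by -0.14 (95% confidence interval -0.54 to 0.27, adjusted p = 0.723, limma).

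The 250 bases before the first RefSeq start of *Trim24* (GRCm38.p6, chr6:37870561-37870810, plus strand) are shown because *Trim24* is among the transcripts that rose and because these letters include the motif read by another of the 9 regulators. Capitals mark 2 matches to CCAAT (the second as its reverse complement ATTGG), the core of the NF-Y motif, and 1 match to CANNTG, the motif of basic helix-loop-helix factors such as FIGLA and SOHLH1.
Trim24: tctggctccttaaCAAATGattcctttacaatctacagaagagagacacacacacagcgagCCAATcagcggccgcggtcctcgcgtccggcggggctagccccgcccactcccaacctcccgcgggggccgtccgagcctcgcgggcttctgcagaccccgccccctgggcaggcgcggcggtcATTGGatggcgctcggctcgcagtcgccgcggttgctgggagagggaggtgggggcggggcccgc
A CCAAT or ATTGG was found in 33.8% of all 32851 RefSeq windows of this length and CANNTG in 66.2%. A match is a description of the letters and not of binding.

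Of 3 other TIF1 family genes, 2 were higher in 4F at day 21 than at day 7, and *Trim66*, at most 1.64 TPM in any library, did not pass (adjusted p = 0.242, limma). *Trim28*, the corepressor KAP1, was at 83.2 and 81.8 TPM at day 7 and 132 to 163 TPM in 4F at day 21 (log2 fold change 0.80, adjusted p = 0.00231, limma). *Trim33* was at 31.3 and 26.1 TPM, then 48.2 to 52.3 TPM (0.79, adjusted p = 0.00397, limma). Both passed after median-of-ratios rescaling and neither passed after quantile normalization (0.18 and 0.37) or with voom (0.27 and 0.30). *Trim24* made up 26.4% ± 1.73, 31.5% ± 4.12 and 26.0% ± 0.750 of the summed TPM of these 3 genes at day 7, in 4F at day 21 and in 8F (SD, n = 2, 3 and 2), and the shares of 4F at day 7 overlapped those of both other groups.

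*Yap1* (chromosome 9, 7931999 to 8004596, minus strand) encodes the Hippo pathway coactivator, which enters the nucleus when the LATS kinases are inactive and drives transcription through TEAD proteins. Its levels were 40.3 and 37.7 TPM at day 7, 59.3, 48.9 and 58.6 TPM in 4F at day 21 and 68.7 and 71.0 TPM in 8F. The 3 groups did not overlap, and 8F was highest. The log2 fold change from day 7 to day 21 in 4F was 0.50 (SE 0.13, adjusted p = 0.0237, limma), which passed in 9 of 18 other settings. It was 0.16 with library factors from the median of ratios, 0.0017 after quantile normalization and -0.02 with voom, so the direction itself rests on the scaling. 8F against 4F at day 7 gave 0.83 (adjusted p = 0.00572, limma), which passed in 17 of the 18. 8F against 4F at day 21 gave 0.33 (adjusted p = 0.207, limma) and passed with voom alone (0.47, adjusted p = 0.0199). The opposite-strand transcript *Gm20416*, at up to 109 TPM, shares 1.25% of the *Yap1* exon bases.

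The 250 bases before the RefSeq start of *Yap1* (GRCm38.p6, chr9:8004597-8004846, minus strand) are shown because they hold the letters of a TEAD motif. Capitals mark 1 match to CATTCC, read here as its reverse complement GGAATG, and 1 match to CANNTG.
Yap1: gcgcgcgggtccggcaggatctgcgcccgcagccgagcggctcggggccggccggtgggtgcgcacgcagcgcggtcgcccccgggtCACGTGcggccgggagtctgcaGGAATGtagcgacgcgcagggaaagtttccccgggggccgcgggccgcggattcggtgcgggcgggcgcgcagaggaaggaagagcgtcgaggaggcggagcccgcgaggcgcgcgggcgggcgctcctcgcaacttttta
CATTCC or GGAATG was found in 12.6% of all windows, and in 1 of the 9 windows of the regulators. Those 9 windows cover *Smarca4*, *Trim24*, *Ctcf*, *Yap1*, *Nfya* and *Nelfa*, as *Trim24* has 2 listed starts and *Nfya* has 3. CCAAT was found in 2 of the 9, CANNTG in 4, TAATTG in 1 and TAATTA in 0, against 33.8%, 66.2%, 7.17% and 4.84% of all windows. TATAAA was in 1 of the 9 and in 12.4% of all windows. Both strands were searched for each motif.

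*Tead4* (chromosome 6, 128224288 to 128300823, minus strand) encodes a DNA-binding partner of YAP1 that is needed for trophectoderm in the embryo. It was at 10.2 and 12.1 TPM at day 7, 0.534, 0.640 and 0 TPM in 4F at day 21, and 0 and 0.836 TPM in 8F. It met the filter for low values through day 7 alone. These values rest on 144 and 227 estimated reads at day 7, on 9, 10 and 0 reads in 4F at day 21 and on 0 and 17 reads in 8F. Where no read was found, 3 reads would have given 0.199 TPM in 4F and 0.143 TPM in 8F, and this limit covers counting error only. Both day 7 libraries stood above all 5 day 21 libraries. *Tead4* fell by 3.15 from day 7 to day 21 in 4F (SE 0.44) and by 3.16 in 8F against 4F at day 7. Both values are descriptions, on a scale that understates changes of low genes. The ratio of mean TPM was 28.5 for 4F. 8F and 4F at day 21 differed by -0.01 (95% confidence interval -1.07 to 1.05, adjusted p = 1, limma).

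Of 8 paralogs and cofactors of *Yap1* and *Tead4*, 3 were lower (*Wwtr1*, *Tead1* and *Vgll3*) and 2 higher (*Vgll1* and *Vgll2*) in 4F at day 21 than at day 7. *Vgll3* met the filter for low values only through day 7 and *Vgll2* only through day 21, so their calls are descriptions. *Wwtr1*, which encodes the YAP1 paralog TAZ, was at 47.2 and 45.8 TPM at day 7, at 7.91, 1.45 and 8.03 TPM in 4F at day 21 and at 8.40 and 7.44 TPM in 8F. It fell by 3.03 on the log2 scale in 4F (adjusted p = 0.00711, limma). *Yap1* made up 45.6% ± 0.685 of their summed TPM at day 7 (SD, n = 2), 91.1% ± 5.22 in 4F at day 21 (n = 3) and 89.8% ± 1.00 in 8F (n = 2). This shift in share, unlike the change of *Yap1* itself, is free of the scaling of the library.

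*Tead1* was at 34.0 and 25.8 TPM at day 7, 12.2, 15.2 and 13.2 TPM in 4F at day 21, and 5.07 and 5.37 TPM in 8F. *Tead2* was at 23.3 and 26.4 TPM, then 26.2, 41.1 and 38.5 TPM, then 12.9 and 12.2 TPM. *Tead1* fell by 1.08 on the log2 scale from day 7 to day 21 in 4F (adjusted p = 0.0105, limma), and *Tead2* did not pass (0.47, adjusted p = 0.153, limma). Both were lower in 8F than in 4F at day 21 (log2 fold change -1.22 and -1.40, adjusted p = 0.0286 and 0.0189, limma). *Tead3* lay between 5.62 and 9.81 TPM throughout and passed in none of the 3 comparisons (adjusted p = 0.201, 0.576 and 0.692, limma). *Tead4* thus made up 14.9% ± 2.04 of the summed TPM of the 4 *Tead* genes at day 7 (SD, n = 2), 0.738% ± 0.645 in 4F at day 21 (n = 3) and 1.56% ± 2.21 in 8F (n = 2). The other cofactors *Vgll3* (-2.53) and *Vgll1* (1.23) passed in opposite directions in 4F, and *Vgll1* passed under none of the other 3 scalings.

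**Figure D3:**
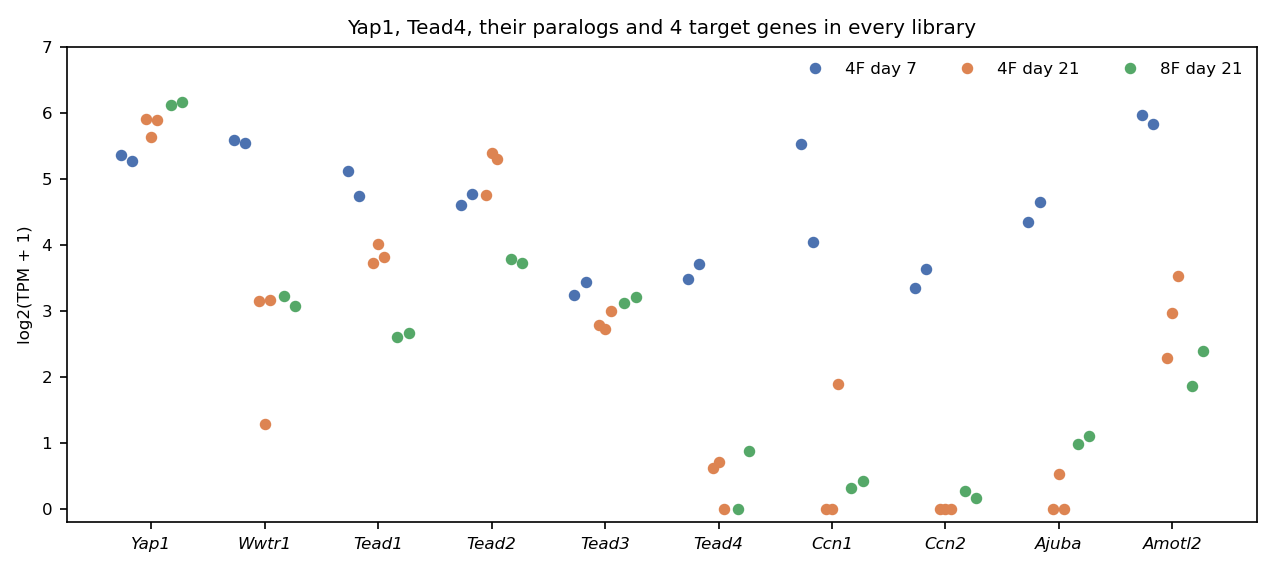
RNA level as log2(TPM + 1) (y axis) of *Yap1*, *Wwtr1*, the 4 *Tead* genes and 4 YAP and TEAD target genes, with 1 point per library (blue, 4F at day 7; orange, 4F at day 21; green, 8F at day 21). *Wwtr1*, *Tead1*, *Tead4* and the 4 target genes are lower in the 5 day 21 libraries than in both day 7 libraries, while *Yap1* is not. The 4 target genes drawn are part of 10 listed, and *Lats2*, not drawn, did not pass in 4F. *Tead4*, *Ccn1*, *Ccn2* and *Ajuba* met the filter for low values only through day 7.

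Of 10 genes commonly used as YAP and TEAD targets, 6 met the filter for low values, *Ccn1*, *Ccn2* and *Ajuba* only through day 7, so those 3 are given by their values alone. The other 4 did not meet the filter, among them *F3*, at 0.807 and 16.4 TPM in the day 7 libraries. *Ccn1*, a secreted matricellular protein gene, went from 45.3 and 15.5 TPM to 0, 0 and 2.72 TPM. *Ccn2* went from 9.22 and 11.4 TPM to 0 in all 3 libraries, and was at 0.210 and 0.124 TPM in 8F. *Ajuba*, a LIM protein that inhibits the LATS kinases, went from 19.4 and 24.2 TPM to at most 0.442 TPM. *Amotl2*, an angiomotin that binds YAP1, was at 62.0 and 56.1 TPM at day 7 and between 3.87 and 10.6 TPM in 4F at day 21, and fell by 2.98 on the log2 scale (adjusted p = 0.00179, limma). *Crim1* fell by 1.31 (adjusted p = 0.0271, limma), and the kinase gene *Lats2* did not pass (adjusted p = 0.0746, limma). None of the 6 passed between 8F and 4F at day 21 with limma, 0 of them had an unadjusted p under 0.05, and 0 passed with voom. The summed markers of other differentiation, of which *Krt8*, *Krt18* and *Hand1* led at day 7, were likewise higher there (1115 and 1588 TPM against 75.0 to 185 TPM). Of the 6 tested, 3 were lower and 2 higher in 4F at day 21. *Hand1* met the filter only through day 7 and *Pax6* only through day 21. *Gata4* went the other way, from 3.07 and 1.57 TPM at day 7 to 32.4, 46.3 and 42.9 TPM in 4F at day 21. The part of these markers in the decreases was not tested.

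Among 20 Hippo kinases and adaptors, 6 were higher and 7 lower in 4F at day 21, against 4 and 8, 3 and 7, and 3 and 11 under median-of-ratios, quantile and voom scaling. As deposited, 25.3% of all genes tested were higher and 15.3% lower. The 7 include *Amotl2* and *Ajuba*, which are also among the target genes above. *Ajuba* met the filter only through day 7, so its call is a description. *Stk3*, the kinase MST2, rose from 30.0 and 40.7 TPM to 119, 140 and 124 TPM (log2 fold change 1.84, adjusted p = 0.000317, limma). *Wwc2*, a KIBRA family adaptor, was up by 1.67 (adjusted p = 0.000273, limma). In 8F, *Stk3* and *Wwc1* were lower than in 4F at day 21 (-0.74 and -0.98, adjusted p = 0.0402 and 0.0385, limma), *Stk3* not after median-of-ratios or quantile rescaling.

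*Nfya* (chromosome 17, 48386885 to 48409906, minus strand) encodes the CCAAT-binding subunit of NF-Y, a trimer with NFYB and NFYC. Its levels were 21.9 and 38.4 TPM at day 7, 74.1, 72.9 and 66.4 TPM in 4F at day 21 and 84.9 and 96.0 TPM in 8F. The 3 groups did not overlap, and the day 7 libraries differed most from each other. *Nfya* rose by 1.26 from day 7 to day 21 in 4F (SE 0.23, adjusted p = 0.00549, limma) and by 1.60 in 8F against 4F at day 7 (adjusted p = 0.00372, limma). The first was 0.82 with an adjusted p of 0.0513 after quantile normalization, and the second passed under all 18 other settings. 8F and 4F at day 21 differed by 0.34 (adjusted p = 0.461, limma).

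*Nfyb* was at 21.4 and 12.7 TPM at day 7, 35.7, 19.8 and 45.0 TPM in 4F at day 21 and 19.3 and 21.1 TPM in 8F, and did not pass (adjusted p = 0.103 in 4F, limma). *Nfyc*, the most abundant subunit transcript, was at 104 and 146.5 TPM, then 195, 203 and 162 TPM, then 235 and 219 TPM. It rose by 0.59 in 4F (adjusted p = 0.035, limma), which held under none of the 3 other scalings and was -0.04 after quantile normalization. *Nfya* was 17.2% ± 3.21 of the summed TPM of the 3 subunits at day 7 (SD, n = 2), 24.4% ± 0.205 in 4F at day 21 (n = 3) and 26.8% ± 2.52 in 8F (n = 2).

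*Nelfa* (chromosome 5, 33897916 to 33936413, minus strand) encodes a subunit of the negative elongation factor NELF, which holds RNA polymerase II in a paused state near promoters. It was at 40.7 and 53.6 TPM at day 7, 92.8, 83.6 and 98.1 TPM in 4F at day 21 and 104 and 106 TPM in 8F. Every day 21 library exceeded both day 7 libraries, and 8F exceeded 4F in all libraries. *Nelfa* rose by 0.95 in 4F (SE 0.15, adjusted p = 0.00288, limma), and this was 0.38 after quantile normalization and 0.42 with voom, neither of which passed. In 8F against 4F at day 7 it rose by 1.16 (adjusted p = 0.00242, limma) and passed under all 18 other settings. Between 8F and 4F at day 21 the difference was 0.20 (adjusted p = 0.499, limma). *Nsd2*, at up to 44.9 TPM on the opposite strand, shares 1.52% of the *Nelfa* exon bases.

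The other NELF subunits did not move as a block. *Nelfb* was at 22.7 and 34.3 TPM at day 7 and 13.6 to 17.2 TPM in 4F at day 21, a fall of 0.88 on the log2 scale (adjusted p = 0.0257, limma). *Nelfe* was higher by 0.85 (adjusted p = 0.00612, limma) and *Nelfcd* did not pass (0.41, adjusted p = 0.15, limma). *Nelfa* was 25.0% ± 5.29 of the summed TPM of the 4 subunits at day 7 (SD, n = 2), 32.8% ± 1.39 in 4F at day 21 (n = 3) and 39.5% ± 0.310 in 8F (n = 2). Of 14 other NELF, DSIF and P-TEFb genes tested, 6 were higher and 1 lower in 4F at day 21, against 3 higher and 4 lower with voom. The shares of all genes as deposited were 25.3% and 15.3%. *Hexim2* and *Larp7*, which encode parts of the 7SK particle that restrains P-TEFb, rose by 1.68 and 1.32 (adjusted p = 0.000615 and 0.000807, limma). *Larp7* and the DSIF gene *Supt5* were lower in 8F than in 4F at day 21 (-0.75 and -0.67, adjusted p = 0.0305 and 0.0334, limma).

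**Figure D4:**
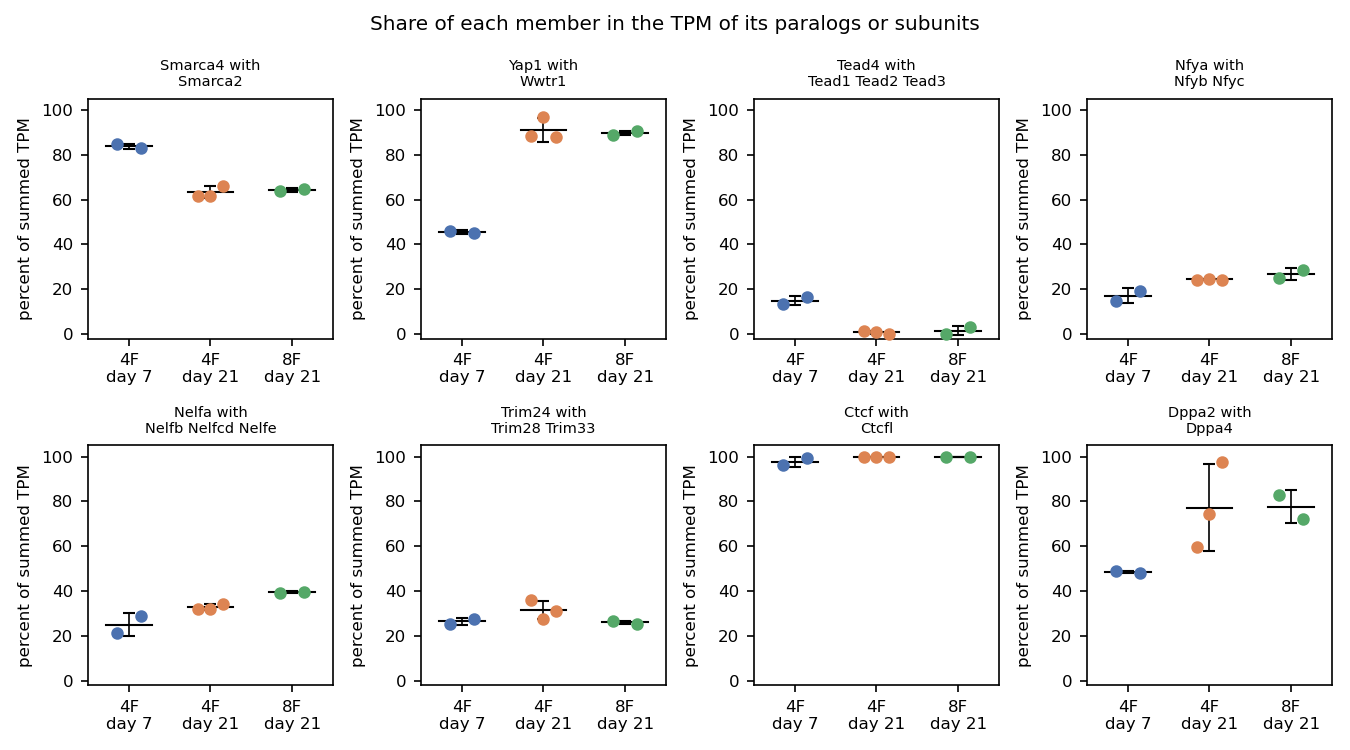
Share of each regulator in the summed TPM of itself and its listed paralogs or subunits, in percent (y axis), in 4F at day 7 (n = 2), 4F at day 21 (n = 3) and 8F at day 21 (n = 2). Points are libraries, long lines are means and bars are 1 SD; the *Smarca4* share goes from 83.9% to 63.2% and the *Yap1* share from 45.6% to 91.1% between day 7 and day 21 in 4F.

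*Dppa2* (chromosome 16, 48303908 to 48319723, plus strand) and *Dppa4* (chromosome 16, 48283733 to 48294237, plus strand) lie next to each other, with 9670 bases between their gene models. They encode SAP domain proteins that form a complex, bind CpG-rich promoters and activate *Dux* and 2-cell stage genes in mESCs. *Dppa2* was at 51.4 and 47.6 TPM at day 7, 10.8, 18.9 and 12.6 TPM in 4F at day 21 and 51.4 and 32.6 TPM in 8F. The 3 libraries of 4F at day 21 stood below the other 4, which overlapped. *Dppa2* fell by 1.78 from day 7 to day 21 in 4F (adjusted p = 0.00352, limma), in each of the 18 other settings as well. In 8F it was higher than in 4F at day 21 (log2 fold change 1.51, SE 0.29, 95% confidence interval 0.82 to 2.20, adjusted p = 0.0288, limma). That call passed in 9 of 18 other settings and was lost without any 1 of 6 libraries (adjusted p of 0.0599 to 0.254), 4F replicate 2 at day 21 being the exception. 8F at day 21 and 4F at day 7 differed by -0.27 (95% confidence interval -1.02 to 0.49, adjusted p = 0.552, limma).

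*Dppa4* was at 53.8 and 51.5 TPM at day 7, 7.32, 6.51 and 0.287 TPM in 4F at day 21 and 10.6 and 12.5 TPM in 8F. In estimated reads these were 351 and 447, then 57, 47 and 2, then 103 and 117, so replicate 3 of 4F at day 21 was low in *Dppa4* but not in *Dppa2* (129 reads). Day 7 libraries stood above all others, and 8F above 4F. *Dppa4* fell by 3.64 in 4F (SE 0.79, adjusted p = 0.0112, limma), and by 2.76 without replicate 3 (adjusted p = 0.00103, limma). In 8F against 4F at day 7 the log2 fold change was -2.10 (95% confidence interval -4.18 to -0.02, adjusted p = 0.104, limma), which passed in 6 of 18 other settings and had an adjusted p of 0.00209 without replicate 3 of 4F at day 21. Between 8F and 4F at day 21 it was 1.54 (95% confidence interval -0.36 to 3.44, adjusted p = 0.327, limma), and 0.66 without replicate 3 (adjusted p = 0.139, limma). *Dppa2* made up 48.4% ± 0.585 of the summed TPM of the pair at day 7 (SD, n = 2), 77.3% ± 19.2 in 4F at day 21 (n = 3) and 77.6% ± 7.44 in 8F (n = 2).

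The 2-cell stage genes listed as downstream of DPPA2 and DPPA4 were mostly near 0. Of 22 such genes in the table, 9 met the filter for low values and 13 did not. Some of the 13 passed 1 TPM in a single library, such as *Gm4340* (12.0 TPM in day 7 replicate 1) and *Usp17lb* (8.1 TPM in 8F replicate 1). *Usp17la* met the filter through 8F alone (3.04 and 1.07 TPM, 0 in all 5 4F libraries). *Duxf3* (*Dux*) did not exceed 1.04 TPM in any library. No *Zscan4* gene exceeded 5.39 TPM, and reads of this family are uncertain because its copies are near-identical and uniquely mapped reads alone were kept. The same limit may apply to *Duxf3* and to the *Tcstv* and *Usp17l* genes, which was not checked. *Tcstv1*, a 2-cell stage transcript, was at 24.7 and 16.7 TPM in 8F against 2.60, 0 and 3.24 TPM in 4F at day 21 and 1.82 and 0.479 TPM at day 7. It was higher in 8F than in 4F at day 21 by 3.11 on the log2 scale (adjusted p = 0.0488, limma), and this had an adjusted p of 0.0561 after quantile normalization. Of the 9 genes, *Tcstv1* and *Usp17la* were higher in that comparison as deposited, 1 was higher after median-of-ratios rescaling and 0 after quantile normalization, and voom gave 4 higher and 1 lower, so the count describes these settings and supports no direction. *Tcstv3* (17.7 and 12.7 TPM in 8F, at most 6.21 TPM in the other libraries) and *Usp17le* (18.8 and 9.71 TPM in 8F, at most 8.21 TPM in the others) did not pass in that comparison (adjusted p = 0.119 and 0.0606, limma). *Sp110* rose from 23.6 and 43.5 TPM at day 7 to 304, 299 and 305 TPM in 4F at day 21 (log2 fold change 3.20, adjusted p = 0.000168, limma).

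Among 18 further genes reported as maternal regulators of the same process, 8 were higher and 4 lower in 4F at day 21 than at day 7, against 5 higher and 7 lower with voom. The shares of all genes as deposited were 25.3% and 15.3%. *Klf17*, a Kruppel-like factor, rose from 10.9 and 13.2 TPM to 205, 238 and 198 TPM and stood at 296 and 291 TPM in 8F (adjusted p = 2.71e-05 in 4F, limma). *Pabpn1l*, a poly(A)-binding protein gene of oocytes, rose by 4.16 (adjusted p = 2.66e-05, limma) and was lower in 8F than in 4F at day 21 (-0.71, adjusted p = 0.0253, limma). *Gabpa*, an ETS factor, went from 96.3 and 98.6 TPM to 32.7, 28.8 and 30.7 TPM and to 17.7 and 17.2 TPM in 8F, and was lower in 8F than in 4F at day 21 (log2 fold change -0.78, adjusted p = 0.0189, limma). *Kdm5b*, an H3K4 demethylase, fell by 1.45 in 4F (adjusted p = 0.0106, limma).

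The comparison of 8F with 4F at day 7 shares its day 7 libraries with the one within 4F. As deposited, 24.2% of all genes tested were higher in it and 13% lower. Of 26 BAF and PBAF genes 12 were higher and 3 lower, of 18 cohesin genes 5 were higher and 2 lower, and of 14 NELF, DSIF and P-TEFb genes 3 were higher and 2 lower. These balances rest on the scaling, since median-of-ratios rescaling gave 5 higher and 4 lower, 3 and 4, and 2 and 3. Quantile normalization gave 5 and 4, 3 and 5, and 2 and 4, and voom gave 5 and 5, 3 and 5, and 2 and 3. *Mepce*, which caps 7SK RNA, was higher (1.38, adjusted p = 0.00126, limma), and the P-TEFb inhibitor *Hexim1* (-2.02, adjusted p = 0.0144) and the cyclin gene *Ccnt1* (-0.82, adjusted p = 0.0325) were lower. Of 20 Hippo kinases and adaptors 2 were higher and 7 lower (9 to 12 lower under the 3 other scalings), among them *Amotl2* (-3.77, adjusted p = 0.0013, limma). *Ajuba*, also among the 7, met the filter only through day 7, so its call is a description.

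The profiles most like those of the 3 regulators with the largest changes in 4F were found by the root mean square difference of centred log2(TPM + 1) over the 7 libraries. For *Dppa4* they were *Snord22* (0.43) and *Gm9396* (0.45), for *Tead4* they were *Gpx1* (0.27) and *Tsen34* (0.31), and for *Dppa2* they were *Rps29* (0.21) and *H1f3* (0.24). *Gpx1*, a glutathione peroxidase gene, was at 175 and 208 TPM at day 7 and 17.7 to 32.1 TPM in the day 21 libraries. *Rps29*, a ribosomal protein gene, was at 281 and 327 TPM at day 7, 74.8 to 103 TPM in 4F at day 21 and 304 and 279 TPM in 8F.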

How the data were processed

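RNA was measured in 7 mini-oocyte libraries made with a SMART-seq Stranded Kit. The authors used Trim Galore for trimming, Hisat2 for alignment to the mm10 genome and Bedtools to discard rRNA. Only unique alignments were counted, by featureCounts over GENCODE vM25, with reads split between overlapping genes and no strand option named, and the values deposited are TPM. A gene and its opposite-strand partner can therefore share reads. Groups and replicate numbers came from the sample labels, which do not say whether replicates are separate cultures, so p-values measure only the spread between these samples. The table writes the 4F and 8F columns with different numbers of decimals. The paper names different NovaSeq instruments with different read lengths, and which of them read each library is not given in the sources used here. Any difference of run between groups can therefore not be told apart from their other differences.

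A gene needed 1 TPM or more in 2 or more libraries. The test was limma (version 3.58.1, under R 4.3.3; linear model with trended empirical Bayes) of log2(TPM + 1) in 1 fit of 3 groups, two-sided, with Benjamini-Hochberg adjustment over all genes tested and FDR 0.05. Reads were estimated from the steps of low TPM values and exon lengths of GENCODE vM21, to which 98.1% of genes matched. Of low values, 77.7% to 83.9% were whole within 0.02 reads and 99.0% to 99.7% were multiples of a fraction that shared reads allow. Alternatives were pseudocounts, filters, scalings, moderation, library weights, a replicate block, libraries left out and voom on estimated reads, the last chosen after seeing the data. The test was tried on simulated data with an assumed spread, in which 200 genes were changed between 8F and 4F at day 21. It recovered 28% of them, 2% of those changed by 1 on the log2 scale and 54% of those changed by 2. Unchanged genes made up 3.45% of the calls. A gene that did not pass between 8F and 4F is therefore not shown to be equal. The percentile among genes tested was added after seeing the data. Promoter windows came from RefSeq (GRCm38.p6).

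Members and lists were chosen with earlier results of these data known. Named were all 9 regulators, their listed paralogs or subunits, up to 2 genes per direction, list and comparison that passed, did not overlap and had at least 5 TPM in the higher group, and the 2 nearest profiles of 3 regulators. *Ccn2*, *Crim1*, *Lats2*, *F3*, *Vgll2*, *Trim66*, *Duxf3*, *Tcstv3*, *Usp17le*, *Usp17la*, *Usp17lb*, *Gm4340*, *Krt8*, *Krt18*, *Hand1*, *Gata4*, *Pax6*, *Dppa5a*, *Pou5f1*, *Zfp42* and *Nanog* and the levels of *Zscan4* were given after their values were seen.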

Additional observations from a re-analysis of the deposited data

How the results depend on the processing

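The count of regulators that passed between 8F and 4F at day 21, 2 in the reported fit, was 0 without the trend of the spread and 0 with the replicate block (2 of 9 at an unadjusted p under 0.05 in each), 1 when only the groups compared were fitted, and 0 to 2 when 1 library was left out (0 without 8F replicate 1). For day 21 against day 7 in 4F the 8 calls became 4 after quantile normalization and 5 with voom, which was added after seeing the data, and 6 to 9 without 1 library. For 8F against 4F at day 7 the 5 calls became 4 to 6 without 1 library, and 7 with voom. Values that changed sign were *Tead4* in 8F against 4F at day 21 (0.0048 with pseudocount 5, and -0.44 to 0.43 without 1 library), *Ctcf* in the same comparison (-0.11 to 0.27 without 1 library), *Ctcf* in 4F over time (-0.019 after quantile normalization), *Yap1* in 4F over time (-0.016 with voom), *Smarca4* in 8F against 4F at day 7 (-0.16 to 0.040 without 1 library) and *Dppa2* there (-0.59 to 0.055). Of these, *Yap1* alone had passed. The cause was not tested. The counts for both comparisons with day 7 include *Tead4*, whose call is a description. The shares of all genes that passed under quantile normalization or voom are not set beside these counts. Whether the regulators lost or gained calls more than other genes therefore cannot be read from them.

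Over all genes, 1822 passed between 8F and 4F at day 21, against 994 without the trend, 3572 with library weights, 164 with the replicate block and 306 to 2221 without 1 library. For 8F against 4F at day 7, 8103 passed, against 4215 and 4089 without 8F replicate 1 or 2. Samples with equal replicate numbers did not deviate together (correlations of -0.04 to 0.01), so the numbers pair nothing, and the block leaves replicate 3 without a partner. Where a library was left out of a pair, the lone sample was assumed to vary like the other groups. The low reads of *Tead4* and *Dppa4* at day 21 limit what can be said of differences between 8F and 4F.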
